A study of Homo sapiens with 12 samples.

Results

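The neutrophil-attracting CXC chemokines form a family of small secreted proteins whose genes lie together on human chromosome 4. The members here were CXCL8, CXCL6, CXCL1, CXCL2, CXCL3 and CXCL5. They were taken as every probe annotated to 1 of these 6 gene symbols, with the older symbol IL8 counted as CXCL8. The rule found 9 probes among the 47231 on the array: 2 each for CXCL8, CXCL6 and CXCL5, and 1 each for CXCL1, CXCL2 and CXCL3. The genes were selected on measured values: their higher levels after EZH2 knockdown, and their return on re-expression, were already known from these arrays. All comparisons of the members are therefore given as a description, with no p-value, and counts of called members (limma, adjusted p under 0.05 over all tested probes) stand beside the share of all tested probes called by the same rule.

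RNA was measured on 12 Illumina BeadChip arrays from BJ cells, an established line of human foreskin fibroblasts, in 4 groups of 3 arrays. The T350A re-expression group carried a lentivirus for an RNAi-resistant EZH2 in which a threonine, a site phosphorylated by cyclin-dependent kinases, is replaced by alanine, and received EZH2 siRNA. The EZH2 re-expression group carried RNAi-resistant wild-type EZH2 and received EZH2 siRNA. The si-EZH2 group carried the control virus LV-C and received EZH2 siRNA, and the si-Control group carried LV-C and received control siRNA. All 4 groups, controls included, therefore had a viral transduction (72 h) followed by an siRNA transfection (60 h). The labels do not say whether the 3 arrays of a group came from separate cultures, so the spread between them may be technical, and 3 arrays a group limit the precision. A level below is a normalized log2 intensity, on which a difference of 1 is a doubling, and the levels of different probes are not set against each other.

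CXC chemokines of this family carry a glutamate-leucine-arginine motif ahead of their first cysteines. They bind the receptor CXCR2, and some of them also CXCR1, and so draw neutrophils out of the blood. Fibroblasts make them when interleukin-1 or tumour necrosis factor activates the transcription factor NF-kappaB, and their mRNAs are short-lived. EZH2 is the enzyme with which a Polycomb complex places repressive methylation on histone H3. The question set by the design was whether EZH2 that cannot be phosphorylated at this threonine still represses genes.

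The promoters show how the genes are related. The sequences below are the 100 bases ahead of each gene's start in RefSeq (GRCh38.p14), shown because all 6 hold the NF-kappaB-type motif GGAATTTCC, written in capitals, at nearly the same distance.
CXCL8, chr4:73740469-73740568, plus strand: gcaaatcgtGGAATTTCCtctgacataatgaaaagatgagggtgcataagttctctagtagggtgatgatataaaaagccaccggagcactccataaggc
CXCL6, chr4:73836578-73836677, plus strand: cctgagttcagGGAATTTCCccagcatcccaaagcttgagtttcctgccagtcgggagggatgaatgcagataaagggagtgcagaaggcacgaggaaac
CXCL1, chr4:73869293-73869392, plus strand: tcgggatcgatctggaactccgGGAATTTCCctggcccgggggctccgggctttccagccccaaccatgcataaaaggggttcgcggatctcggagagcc
CXCL5, chr4:73998678-73998777, minus strand: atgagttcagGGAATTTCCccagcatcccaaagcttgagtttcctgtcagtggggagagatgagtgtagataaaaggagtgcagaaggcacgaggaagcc
CXCL3, chr4:74038690-74038789, minus strand: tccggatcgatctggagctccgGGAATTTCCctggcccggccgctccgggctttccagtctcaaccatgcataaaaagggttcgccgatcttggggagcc
CXCL2, chr4:74099196-74099295, minus strand: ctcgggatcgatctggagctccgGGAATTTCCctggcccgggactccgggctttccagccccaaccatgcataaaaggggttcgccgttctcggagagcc

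GGAATTTCC, searched on both strands in the 250 bases ahead of each start, was present in 6 of 6 member promoters and in 0.413% of the 35116 promoters of the table. The promoters are shown because all 6 hold this motif, and some are alike over much of the window, so the count is a description. The first base of the motif stood between 77 bases (CXCL2) and 91 bases (CXCL8) upstream. With 1 more G ahead of it, the motif was present in 5 of 6, all but CXCL8, and in 0.142% of all promoters. CXCL8 alone among the members held TGACTCA, a sequence bound by AP-1, which 4.2% of all promoters held, and TATAAA, which 10.7% held. CATAAA, found in 9.64% of all promoters, stood 31 bases upstream in CXCL1, CXCL2 and CXCL3. These matches describe letters in a window and do not show that a factor binds there.

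The same 250 bases fell into pairs and groups by likeness after global alignment. CXCL6 and CXCL5 were identical at 85.3% of aligned positions, CXCL1 and CXCL3 at 81.4%, CXCL3 and CXCL2 at 73.4%, and CXCL1 and CXCL2 at 70.1%. The other pairs lay between 44.3% and 54.3%, and every CXCL8 pair was at or below 48.1%. CXCL1, CXCL2 and CXCL3 had 18, 20 and 19 CpG dinucleotides in this window, against 6 in CXCL6, 6 in CXCL5 and 4 in CXCL8. CXCL1, CXCL2 and CXCL3 are known as close paralogues. Probe sequences were not used here, so signal shared between these 3 probes was not tested, and their separate values are uncertain to that extent.

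The targeted gene was read first. EZH2 levels by probe ILMN_1652913 were 7.98, 8.06 and 7.93 with T350A re-expression and 8.46, 8.62 and 8.57 with EZH2 re-expression. They were 5.46, 5.59 and 5.12 in si-EZH2 cells and 6.43, 6.13 and 6.41 in si-Control cells. The 4 groups did not overlap, with si-EZH2 cells lowest and both re-expression groups above si-Control cells. T350A re-expression was 3.17-fold and EZH2 re-expression 4.68-fold above si-Control cells on this probe, and 2.93-fold and 7.18-fold on ILMN_2364529. The T350A transcript was lower than the wild-type one by both probes that saw the re-expressed mRNA. The log2 difference was -0.56 ± 0.13 (SE, limma adjusted p = 0.211) on ILMN_1652913 and -1.29 ± 0.12 (adjusted p = 0.000254) on ILMN_2364529. The third EZH2 probe, ILMN_1708105, averaged 5.91, 5.84 and 5.70 with T350A re-expression, with EZH2 re-expression and in si-EZH2 cells, against 6.79 in si-Control cells, and on it neither re-expression group differed from si-EZH2 cells past the threshold. The part of the lower T350A transcript level in the comparison of the 2 re-expression groups was not tested.

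Fibroblast markers were detected on all arrays for 9 of 9 listed genes, while markers of other cells were detected in part. Of 9 leukocyte markers, PTPRC, LYZ, MPO and S100A8 were detected on no array, and CD68, CD14 and S100A9 on all 12. CD68, the strongest of these 3, averaged 11.01 with T350A re-expression, 11.05 with EZH2 re-expression, 10.99 in si-EZH2 cells and 11.09 in si-Control cells. Of 7 epithelial markers, CDH1, KRT5 and KRT14 were detected on no array, and EPCAM, KRT8, KRT18 and KRT19 on all 12. KRT19 averaged 12.07, 12.34, 11.83 and 12.02 in the same groups. Of 5 endothelial markers, CDH5, VWF and KDR were detected on no array, and TEK on all 12. Marker signal summed on the linear scale over the tested markers moved with the groups for 2 lists. For 9 fibroblast markers it was 162437 to 170552 with T350A re-expression, 157590 to 163886 with EZH2 re-expression, 177124 to 180876 in si-EZH2 cells and 171784 to 176815 in si-Control cells. For the 4 tested epithelial markers it was 4558 to 4668, 5332 to 5752, 3839.5 to 4113 and 4343 to 4827 in the same groups. Their part in the chemokine results was not tested. The ranges for the 4 tested leukocyte markers, 2304 to 2350, 2136 to 2634, 2027 to 2389 and 2241 to 2706, overlapped, as did those of TEK, the tested endothelial marker, at 90.5 to 103, 83.3 to 111, 90.5 to 105 and 75.1 to 103. Among these markers CD14 and KRT19, named after their values were seen, were called higher with EZH2 re-expression than in si-EZH2 cells, by 0.85 and 0.50 on the log2 scale. Detection per array ran from 20658 to 21910 probes (43.7% to 46.4%).

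The chemokines differed between si-EZH2 and si-Control cells to unequal degrees. CXCL8, CXCL6 and CXCL1 were about 3-fold or more above si-Control cells, CXCL2 was 1.94-fold above, and CXCL3 and CXCL5 were close to the detection limit with differences that did not pass the threshold. All 9 probes passed the filter on low signal, which asked for 3 or more arrays with a detection p under 0.05, so all 6 genes were tested. In bulk RNA of this kind, fewer producing cells and less mRNA per cell cannot be told apart.

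CXCL8, known as interleukin-8 and the family's best-known neutrophil attractant, had levels of 11.76, 11.78 and 11.76 in si-EZH2 cells, against 10.03, 9.85 and 9.84 in si-Control cells. The si-EZH2 arrays lay close together (SD 0.0097) and all stood far above the si-Control arrays. The log2 difference was 1.86 ± 0.098 (SE, 3 arrays a group), a 3.62-fold rise. The second CXCL8 probe, ILMN_1666733, gave 10.39, 10.04 and 10.34 in si-EZH2 cells and 8.76, 8.41 and 8.72 in si-Control cells. Its difference was 1.63 ± 0.13, with no overlap between the groups.

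CXCL6, first named granulocyte chemotactic protein, had 8.88, 8.71 and 9.06 in si-EZH2 cells, against 6.96, 7.12 and 7.25 in si-Control cells. Every si-EZH2 array was above every si-Control array, by a difference of 1.77 ± 0.12, a 3.42-fold rise. The second CXCL6 probe, ILMN_2161577, gave 1.84 ± 0.15.

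CXCL1, first described as a growth factor secreted by melanoma cells, had 9.65, 10.26 and 9.60 in si-EZH2 cells, against 8.39, 8.31 and 8.05 in si-Control cells. The groups did not overlap, although the second si-EZH2 array stood above the other two. The difference was 1.59 ± 0.19, a 3.01-fold rise. CXCL2, its close paralogue, had 6.17, 6.41 and 6.32 in si-EZH2 cells, against 5.22, 5.20 and 5.62 in si-Control cells. These groups did not overlap either, and the difference was 0.95 ± 0.12. It was 0.57 without background correction, 0.59 with an offset of 50 and 0.55 on the authors' normalized values. The CXCL2 signal was low: raw intensities averaged 114 in si-EZH2 and 84.9 in si-Control cells, where the medians of the arrays ran from 59.9 to 73.8.

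CXCL3 and CXCL5 did not pass the threshold. CXCL3, a close paralogue of CXCL1 and CXCL2, had 5.61, 5.77 and 5.61 in si-EZH2 cells, against 6.20, 5.04 and 4.93 in si-Control cells. The first si-Control array was above every other array of the study for this probe, and the difference was 0.27 ± 0.30, or 0.68 without that array. CXCL5, first described as a neutrophil attractant from epithelial cells, had 5.65, 5.33 and 5.24 in si-EZH2 cells, against 4.75, 5.17 and 4.88 in si-Control cells. The groups did not overlap, and the difference was 0.47 ± 0.17, but only 1 of 3 si-Control arrays detected the probe. The other CXCL5 probe, ILMN_1752562, was not well above background on any si-Control array, averaged 4.95 in si-EZH2 and 4.61 in si-Control cells, and gives no fold.

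**Figure D1:**
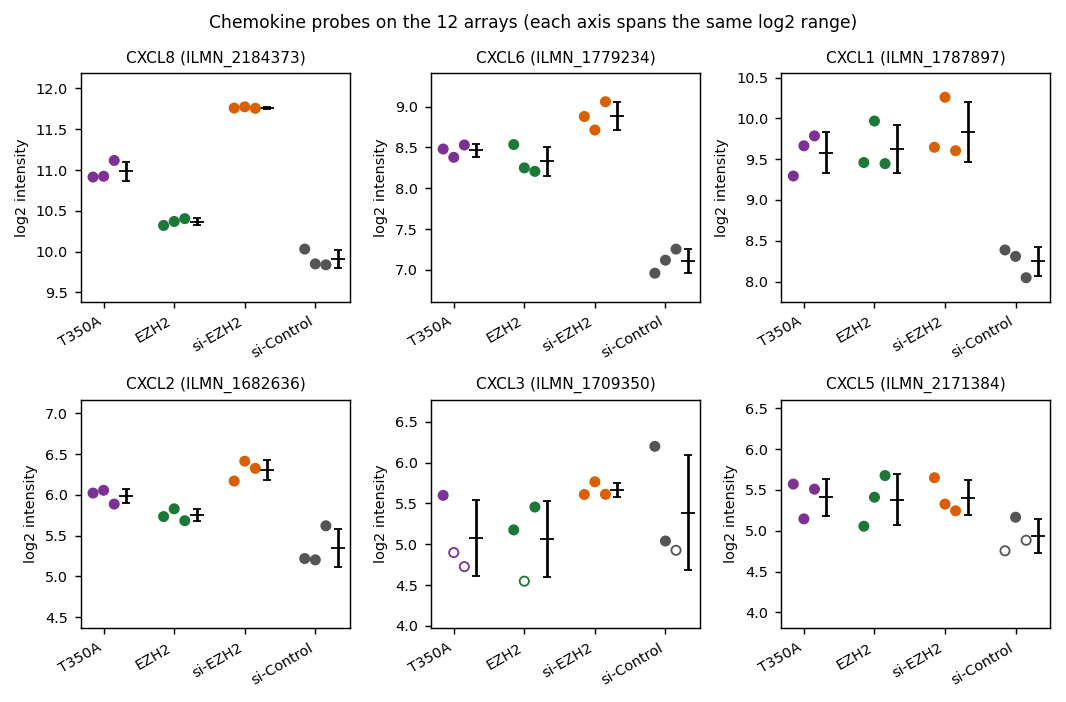
Normalized log2 intensity (vertical axes, each spanning the same log2 range) of 1 probe for each chemokine gene on the 12 arrays; filled points are arrays with a detection p under 0.05, open points are arrays above it, and bars are the mean ± SD of 3 arrays. For CXCL8 the 4 groups stand apart, while for CXCL6 and CXCL1 the re-expression groups stay well above the si-Control arrays.

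In all, 4 of 6 genes were called higher in si-EZH2 than in si-Control cells (limma, adjusted p under 0.05 over 23313 tested probes), where 1.56% of all tested probes were called higher. For 5 of 6 genes the 3 si-EZH2 arrays all lay above the 3 si-Control arrays, which held for 10.8% of all tested probes. The median difference was 1.27 over the 6 genes and -0.0015 over 12640 genes. Since the genes were chosen for this rise, these counts are a description.

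CXCL8, CXCL6 and CXCL2 were lower with EZH2 re-expression than in si-EZH2 cells. With EZH2 re-expression CXCL8 had levels of 10.32, 10.37 and 10.40, against 11.76, 11.78 and 11.76 in si-EZH2 cells. The log2 difference was -1.40 ± 0.098, a 2.64-fold decrease (95% interval -1.61 to -1.19). The second CXCL8 probe gave -1.48 ± 0.13. All EZH2 re-expression arrays were below all si-EZH2 arrays on both probes.

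CXCL6 and CXCL2 were also called lower. CXCL6 had 8.54, 8.25 and 8.21 with EZH2 re-expression, against 8.88, 8.71 and 9.06 in si-EZH2 cells, a difference of -0.55 ± 0.12 (95% interval -0.82 to -0.29). The second CXCL6 probe gave -0.44 ± 0.15 and did not pass the threshold. CXCL2 had 5.73, 5.83 and 5.68, against 6.17, 6.41 and 6.32, a difference of -0.55 ± 0.12 (-0.81 to -0.30). For both genes the groups did not overlap.

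CXCL1 stayed near its knockdown level. It had 9.46, 9.97 and 9.44 with EZH2 re-expression, against 9.65, 10.26 and 9.60 in si-EZH2 cells, and the groups overlapped. The difference was -0.21 ± 0.19 (-0.61 to 0.19), and it was -0.00063 without the high si-EZH2 array. CXCL3 had 5.18, 4.55 and 5.46, against 5.61, 5.77 and 5.61 in si-EZH2 cells. All 3 were lower, but the difference of -0.60 ± 0.30 did not pass the threshold, and 1 EZH2 re-expression array did not detect the probe. CXCL5 had 5.06, 5.41 and 5.68, against 5.65, 5.33 and 5.24, overlapping groups with a difference of -0.026 ± 0.17.

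Thus 3 of 6 genes, CXCL8, CXCL6 and CXCL2, were called lower with EZH2 re-expression than in si-EZH2 cells, where 1.38% of all tested probes were called lower. For 4 of 6 the groups did not overlap, as for 12.5% of all tested probes. The median difference was -0.55 over the 6 genes and -0.0059 over all tested genes. The count was 1 of 6 without si-EZH2 replicate 3, without EZH2 re-expression replicate 2 and without EZH2 re-expression replicate 3. Position on the chip also separated these groups, with sections I, J and K for EZH2 re-expression against E, G and H for si-EZH2.

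CXCL8 was lower than in si-EZH2 cells with T350A re-expression too, at a level above that of the wild type on every array. CXCL8 had 10.91, 10.92 and 11.12 with T350A re-expression, against 11.76, 11.78 and 11.76 in si-EZH2 cells, without overlap. The difference was -0.78 ± 0.098, and -0.89 ± 0.13 on the second probe. CXCL6 had 8.48, 8.38 and 8.53, against 8.88, 8.71 and 9.06 in si-EZH2 cells, a difference of -0.42 ± 0.12 that did not pass the threshold although the groups did not overlap. The same held for CXCL2, which had 6.02, 6.06 and 5.89 with T350A re-expression, against 6.17, 6.41 and 6.32 in si-EZH2 cells, a difference of -0.31 ± 0.12.

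The other members were not called against si-EZH2 cells. CXCL1 had 9.29, 9.66 and 9.78 with T350A re-expression, against 9.65, 10.26 and 9.60, a difference of -0.26 ± 0.19 with overlap, or -0.044 without the high si-EZH2 array. CXCL3 had 5.60, 4.90 and 4.73, of which 1 array detected it, against 5.61, 5.77 and 5.61, a difference of -0.59 ± 0.30. CXCL5 had 5.57, 5.15 and 5.51, against 5.65, 5.33 and 5.24, a difference of 0.0023 ± 0.17. CXCL8 was thus 1 of 6 genes called lower, where 0.0558% of all tested probes were called lower, and 4 of 6 did not overlap, as for 9.49% of all tested probes. The median difference was -0.37 over the 6 genes and -0.0049 over all tested genes. The count was 2 with limma-trend, with uncorrected background, with an offset of 50 and on the authors' normalized values, and 0 when only the compared groups were fitted.

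Set against each other, the T350A and EZH2 re-expression groups differed most in CXCL8 among the members. Both groups were part of the return by which the genes were known, so these values too are a description. It had 10.91, 10.92 and 11.12 with T350A re-expression and 10.32, 10.37 and 10.40 with EZH2 re-expression, so every T350A array lay above every wild-type array. The log2 difference was 0.62 ± 0.098 (95% interval 0.41 to 0.83), 1.54-fold higher, and was not called. On the second probe the levels were 9.38, 9.39 and 9.32 with T350A re-expression and 8.64, 8.75 and 8.93 with EZH2 re-expression. Again no array overlapped, and the difference was 0.59 ± 0.13.

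Over 23 alternative settings the CXCL8 difference stayed between 0.55 and 0.66. It was called in 6 of them. CXCL2 had 6.02, 6.06 and 5.89 with T350A re-expression and 5.73, 5.83 and 5.68 with EZH2 re-expression, without overlap, a difference of 0.24 ± 0.12 that was 0.14 on the authors' normalized values.

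The other 4 members overlapped between the re-expression groups. CXCL6 differed by 0.13 ± 0.12 (95% interval -0.13 to 0.39) and its second probe by -0.0091 ± 0.15. CXCL1 differed by -0.043 ± 0.19 (-0.44 to 0.36). CXCL3 differed by 0.015 ± 0.30 (-0.62 to 0.65) and CXCL5 by 0.028 ± 0.17 (-0.33 to 0.39). The sign changed with single arrays left out for CXCL1, CXCL3 and CXCL5, so no direction is given for them.

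No member was called between the re-expression groups, where 0.00858% of all tested probes were called in either direction, and 1 of 6, CXCL8, had an unadjusted p under 0.05, as did 8.79% of all tested probes. Since the genes were chosen with their return known, the count at that unadjusted p is a description and no test. For 2 of 6 genes the T350A arrays all lay above the EZH2 re-expression arrays, which held for 7.3% of all tested probes. The median difference was 0.080 over the 6 genes and -0.0017 over all tested genes. Under 6 alternatives the count was 1, CXCL8: limma-trend, no filter, a stricter filter, an offset of 50, the authors' normalized values and uncorrected background.

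**Figure D2:**
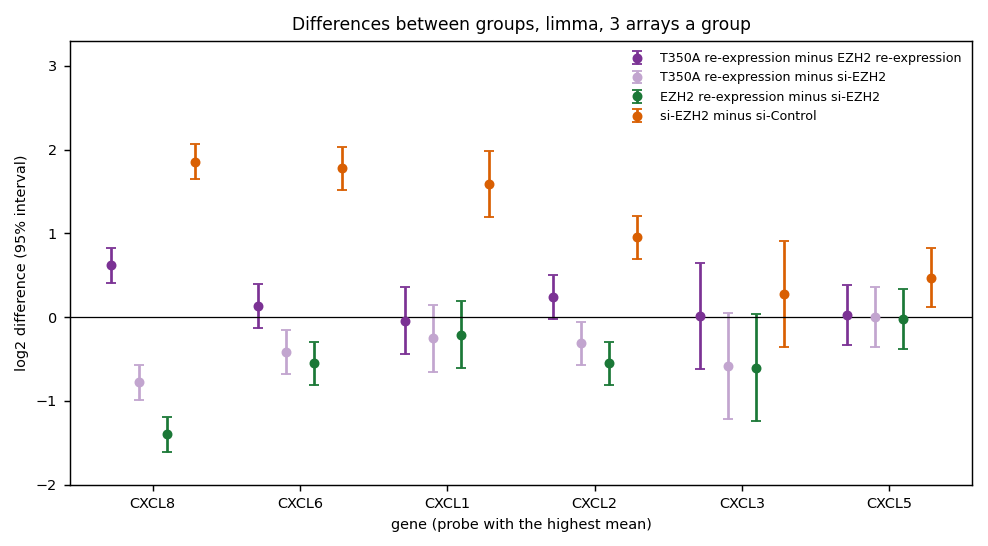
Log2 differences (vertical axis) with 95% intervals from limma for the 6 chemokine genes (horizontal axis), 1 probe a gene and 3 arrays a group. CXCL8 differs by -1.40 between EZH2 re-expression and si-EZH2 cells, CXCL6 and CXCL2 by -0.55 and CXCL1, not called, by -0.21. CXCL3, near the detection limit, differs by -0.60 with an interval of -1.24 to 0.032 and was not called. Between T350A and wild type CXCL8 differs by 0.62, not called.

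Set against si-Control cells, the re-expression groups show how much of the knockdown level was left. With T350A re-expression CXCL8 was still 1.08 ± 0.098 above si-Control cells, CXCL6 1.35 ± 0.12, CXCL1 1.33 ± 0.19 and CXCL2 0.64 ± 0.12. These 4 of 6 genes were called higher, where 1.75% of all tested probes were called higher, and their arrays did not overlap, as for 11.5% of all tested probes. With EZH2 re-expression CXCL8 was 0.46 ± 0.098 above si-Control cells, CXCL6 1.22 ± 0.12 and CXCL1 1.38 ± 0.19. These were the 3 of 6 genes called higher, where 3.6% of all tested probes were, and CXCL2, 0.40 ± 0.12 above, was not called. For 4 of 6 genes these arrays did not overlap, as for 14.4% of all tested probes.

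The 2 CXCL8 probes disagreed at 1 point. With EZH2 re-expression ILMN_2184373 stayed above si-Control cells without overlap, while ILMN_1666733 was 0.15 ± 0.13 above them, with overlapping arrays. The values of CXCL3 against si-Control cells, -0.31 ± 0.30 with T350A re-expression and -0.33 ± 0.30 with EZH2 re-expression, became 0.092 and 0.077 without the first si-Control array. CXCL5 was 0.47 ± 0.17 above si-Control cells with T350A re-expression and 0.45 ± 0.17 with EZH2 re-expression, not called in either.

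How clearly the groups stood apart varied with the gene, and this variation was not tested. For CXCL8 the order ran si-EZH2, T350A re-expression, EZH2 re-expression and si-Control from high to low, and on ILMN_2184373 no neighbours in this order overlapped. CXCL2 kept the same order, and no neighbouring groups overlapped. For CXCL6 the means kept this order too (8.88, 8.46, 8.33 and 7.11), but the re-expression groups overlapped each other. For CXCL1 all 3 EZH2-siRNA groups overlapped, with si-Control alone below them. For CXCL3 and CXCL5 neighbouring groups overlapped, apart from CXCL3 in si-EZH2 cells against either re-expression group and CXCL5 in si-EZH2 against si-Control cells.

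The return share puts the decrease on the scale of the rise: 0% is the si-EZH2 mean and 100% the si-Control mean, on the log2 scale. It shares the si-EZH2 arrays with the rise, and it was computed only where the rise was at least 0.5, which leaves out CXCL3 and CXCL5. For CXCL8 it was 41.9 ± 6.17% with T350A re-expression and 75.3 ± 2.25% with EZH2 re-expression (SD over 3 arrays). This SD holds the si-EZH2 and si-Control means fixed. With their spread included, the SE was 4.58% and 4.75% in the same groups. On the second CXCL8 probe it was 54.8 ± 2.40% with T350A re-expression and 91.0 ± 8.88% with EZH2 re-expression. Every wild-type array was above every T350A array on both probes.

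CXCL2 followed, with 32.9 ± 9.35% for T350A re-expression and 58.0 ± 7.76% for EZH2 re-expression, again without overlap. With the spread of si-EZH2 and si-Control arrays included, the SE was 11.2% and 11.0%. For CXCL6 the shares were 23.7 ± 4.34% with T350A re-expression and 31.2 ± 10.1% with EZH2 re-expression, and on the second probe 24.6 ± 16.1% and 24.1 ± 7.20%. For CXCL1 they were 16.1 ± 16.1% and 13.4 ± 18.7%, with 1 wild-type array at -8.29%, and without the high si-EZH2 array they were 3.18% and 0.046%. In CXCL6 and CXCL1 the 2 proteins' arrays overlapped. The difference in return share between genes was not tested.

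**Figure D3:**
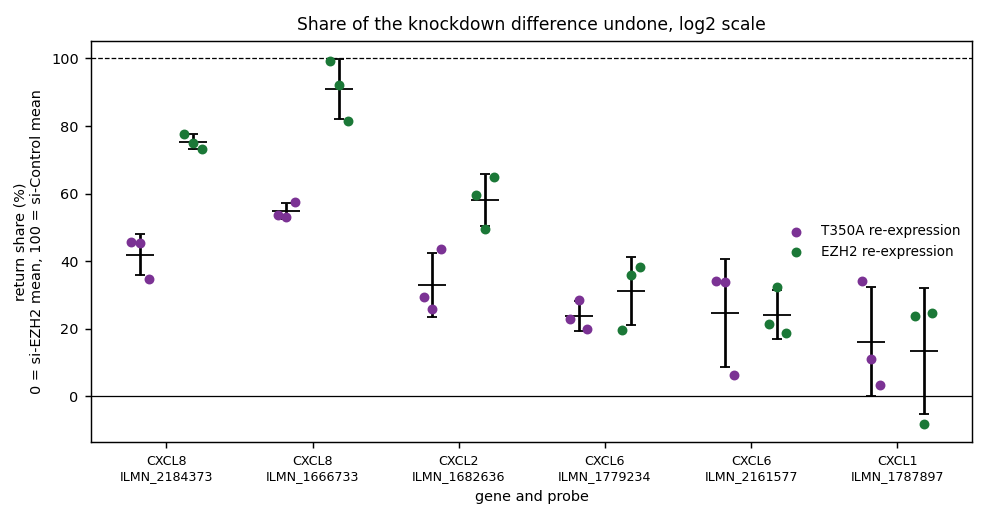
Return share (vertical axis, percent of the knockdown rise undone on the log2 scale) on each T350A and EZH2 re-expression array for the 6 probes with a rise of at least 0.5; bars are the mean ± SD of 3 arrays. The wild-type shares run from 75.3% and 91.0% on the CXCL8 probes to 13.4% for CXCL1, and T350A lies below wild type without overlap for CXCL8 and CXCL2.

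The chemokine genes are neighbours, and the differences did not spread evenly along them. In RefSeq's order of protein-coding genes, RASSF6 is followed by CXCL8, CXCL6, PF4V1, CXCL1, PF4, PPBP, CXCL5, CXCL3, CXCL2, MTHFD2L, EPGN, EREG and AREG. The platelet chemokine genes PF4 and PF4V1, inside the cluster, were detected on 0 of 12 arrays. PPBP, another platelet chemokine, named like RASSF6 for its position after its value was seen, was detected on all 12 and differed by -0.012 ± 0.13 between si-EZH2 and si-Control cells. RASSF6, at one edge, differed by 0.088 ± 0.16.

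EREG, which encodes the growth factor epiregulin on the far side of the cluster, rose by 0.52 ± 0.11 in si-EZH2 cells (adjusted p = 0.0200). It was 0.055 ± 0.11 above si-Control cells with T350A re-expression and 0.12 ± 0.11 above them with EZH2 re-expression. Against si-EZH2 cells EREG differed by -0.47 ± 0.11 with T350A re-expression (limma adjusted p = 0.0979). With EZH2 re-expression it differed by -0.40 ± 0.11 (adjusted p = 0.0701), and neither was called. Of 6 tested genes in a list of neighbours, EREG was the one that rose in si-EZH2 cells and 0 fell. Of 12634 genes other than the members, 1.92% were called higher and 1.5% lower in si-EZH2 than in si-Control cells. The list's median difference was 0.087, against -0.0015 over all tested genes.

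**Figure D4:**
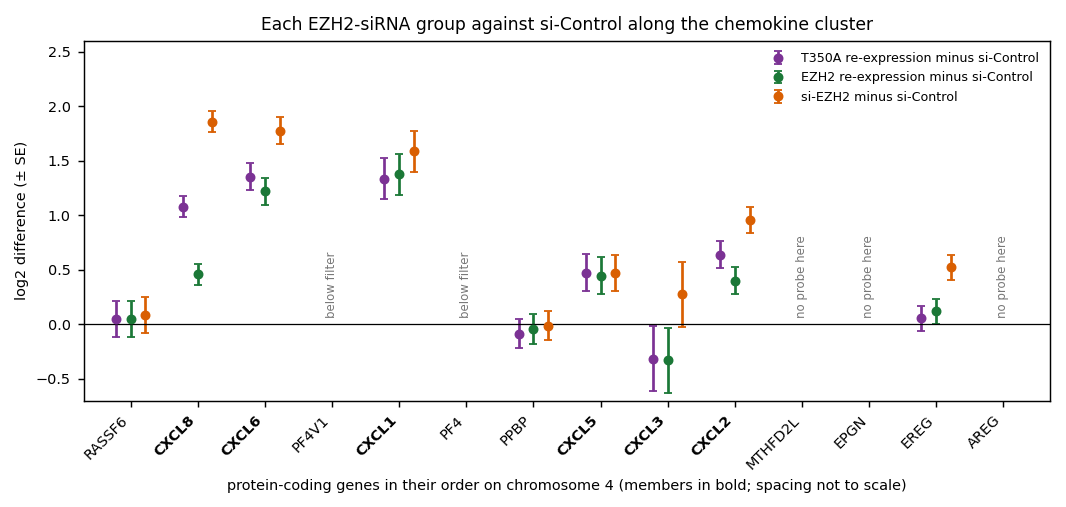
Log2 difference ± SE from si-Control cells (vertical axis) for T350A re-expression, EZH2 re-expression and si-EZH2 cells, with protein-coding genes in their order on chromosome 4 (horizontal axis, not to scale). The members, in bold, stand above their tested neighbours RASSF6 and PPBP for CXCL8, CXCL6, CXCL1 and CXCL2, and EREG differs by 0.52 in si-EZH2 cells.

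Related genes were counted by list, with the background that 1.92% of 12634 other genes were called higher and 1.5% lower in si-EZH2 against si-Control cells. Of 4 tested CXC chemokines other than the members, PPBP included, 0 were called in that comparison (limma, with 1 at an unadjusted p under 0.05). Their median difference was -0.0090. Among them CXCL12, which attracts lymphocytes and stem cells and is made constitutively by fibroblasts, differed by -0.089 ± 0.11. CXCL16 differed by 0.46 ± 0.14 and CXCL14 by -0.0056 ± 0.15. Against si-Control cells CXCL16 was called higher with T350A re-expression, by 0.72 ± 0.14 (limma adjusted p = 0.0103). CXCL14 was called higher with EZH2 re-expression, by 0.56 ± 0.15 (limma adjusted p = 0.0323). Of the receptors, CXCR2 and ACKR1 were detected on 0 of 12 arrays, and CXCR1, detected on 5, differed by 0.28 ± 0.14 and was not called.

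The CC chemokines named here attract monocytes. Of 5 tested CC and CX3C chemokines, 3 rose in si-EZH2 cells and 0 fell, with a median difference of 0.72. CCL7 averaged 6.76 in si-EZH2 and 5.26 in si-Control cells, a difference of 1.50 ± 0.19 (adjusted p = 0.00025). It fell by 0.96 ± 0.19 with EZH2 re-expression (adjusted p = 0.0131), while the T350A difference from si-EZH2 cells was -0.22 ± 0.19 (adjusted p = 0.649). T350A and wild type did not differ past the threshold for CCL7, at 0.73 ± 0.19 (adjusted p = 0.254). CCL2 rose by 0.72 ± 0.11 and CCL8 by 0.82 ± 0.12, and CCL2 fell with EZH2 re-expression, by 0.59 ± 0.11.

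A minority of the listed genes that act upstream of the chemokines rose. Of 12 tested genes for inducing cytokines, their receptors and adaptors, 4 rose in si-EZH2 cells and 0 fell, with a median difference of 0.17. IL1B and IL1A, the 2 forms of interleukin-1, rose by 1.36 ± 0.11 (adjusted p = 3.68e-06) and 1.03 ± 0.11 (adjusted p = 8.06e-05). IRAK2, a kinase adaptor of the interleukin-1 receptor, rose by 0.67 ± 0.13, and TLR4, a receptor for bacterial lipopolysaccharide named here after its value was seen, rose by 0.56. IL1A fell by 0.70 ± 0.11 with T350A re-expression (adjusted p = 0.0312) and by 0.76 ± 0.11 with EZH2 re-expression (adjusted p = 0.00315), each against si-EZH2 cells. IL1B fell by 0.69 ± 0.11 with EZH2 re-expression (adjusted p = 0.00392), and its T350A difference was -0.56 ± 0.11 (adjusted p = 0.0550). The re-expression groups differed by 0.069 ± 0.11 for IL1A and 0.13 ± 0.11 for IL1B, neither past the threshold. IRAK2 stayed near its si-EZH2 level, at -0.041 ± 0.13 with T350A re-expression and -0.012 ± 0.13 with EZH2 re-expression. It remained called above si-Control cells, by 0.63 ± 0.13 (adjusted p = 0.0146) and 0.66 ± 0.13 (adjusted p = 0.00673) in the same groups.

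Of 14 tested NF-kappaB components, 2 rose in si-EZH2 cells and 0 fell, with a median difference of 0.24. They were TNFAIP3, which ends NF-kappaB signalling, at 0.82 ± 0.12 (adjusted p = 0.000981), and NFKBIZ, a nuclear co-factor, at 0.72 ± 0.11 (adjusted p = 0.00139). Both are themselves induced by NF-kappaB. Of 12 AP-1 and C/EBP genes, 1 rose, ATF3, named after its value was seen, by 0.51. Of 10 regulators of AU-rich mRNA stability 0 were called in either direction (limma; 2 at an unadjusted p under 0.05).

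Of 17 tested interferon-stimulated genes, 10 rose in si-EZH2 cells, with a median difference of 0.58. In the re-expression groups 9 of 17 were called higher than in si-Control cells with T350A re-expression and 10 of 17 with EZH2 re-expression, where 2.08% and 4.3% of the 12634 genes were. HERC5, an interferon-induced ligase, was 1.46 ± 0.13 above si-Control cells with T350A re-expression, 1.30 ± 0.13 with EZH2 re-expression and 1.56 ± 0.13 in si-EZH2 cells.

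Few other genes with the promoter motif were called. Outside the family 131 genes of the promoter table held GGAATTTCC within 250 bases upstream, and 53 of these were tested. In si-EZH2 cells 2 were called higher (3.77%), NFKBIZ and OAS3, and 1 lower, KANK1, against 1.92% higher and 1.5% lower among 12634 genes. The median difference was 0.040.

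Genes with the profile most like that of CXCL8 were sought by the root mean square distance between mean-centred log2 levels over the 12 arrays, among 12634 genes whose median distance was 0.719. The nearest were TNFSF18 (0.172), a ligand of the TNF family, IL24 (0.202), a cytokine of the interleukin-10 family, and SLC39A8 (0.280), a zinc transporter. IL11 (0.284), a cytokine of the interleukin-6 family, HAS2 (0.294), a hyaluronan synthase, and IL1B (0.300) followed. The nearest family member, CXCL6, was farther away at 0.366, still below the median of 0.719. It was the nearest of a few members, while the genes above were the nearest among 12634. TNFSF18 averaged 6.46 with T350A re-expression, 5.82 with EZH2 re-expression, 7.08 in si-EZH2 cells and 5.51 in si-Control cells, the same order of groups as CXCL8.

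Against the mean profile of the 6 members, where the median distance was 0.448, the nearest genes were TMEM158 (0.119), FST (0.123), IL1B (0.137), COXFA4L3 (0.144), PDPN (0.144) and NETO1 (0.152). IL1B was on both lists. Single members lay between 0.166 (CXCL2) and 0.550 (CXCL3) from that mean, which they help to form. These distances describe the same 12 arrays from which the members were chosen and carry no test.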

How the data were processed

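RNA of BJ cells was hybridised to 12 Illumina arrays on 1 chip. Per the file headers, the non-normalized table pairs each array's intensity with a detection p-value. Its deposited intensity values are linear and still hold their background. A second table, deposited by the authors as normalized, also holds linear intensity values, and how it was normalized is not given in the sources used here. Gene symbols came from GEO's platform annotation, with 1 symbol for 30113 probes, several for 8 and none for 17110.

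The raw intensities went through neqc in limma 3.58.1 (R 4.3.3): normexp background correction (offset 16, background taken from the detection p), quantile normalization and log2. Testing was limited to the 23313 probes detected (p under 0.05) on 3 or more of the 12 arrays. The fit took all 12 arrays and 4 group means, with moderated variances (8 residual and 7.29 prior degrees of freedom). Tests were 2-sided and adjusted by Benjamini-Hochberg over all tested probes, with 0.05 as the threshold for a call. The procedure was tested on simulated data.

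The members, lists and comparisons were chosen with earlier results of these data known. A gene was represented by its probe with the highest mean. The genes named were the 6 members with every probe, EZH2, the 6 genes closest to CXCL8 and the 6 closest to the members' mean, and up to 3 genes per list with the smallest F-test p. Other genes are marked as named after their values were seen, and so were the markers, PF4, PF4V1, CXCR2, ACKR1, and NFKBIZ, OAS3 and KANK1 among genes with the promoter motif. Promoters came from RefSeq (GRCh38.p14) and matched 6 of 6 members. They were aligned with Biopython 1.88 (match 1, mismatch -1, gap opening -2, gap extension -0.5). Figures were drawn with matplotlib 3.10.9.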

Additional observations from a re-analysis of the deposited data

How the results depend on the processing

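Against si-Control cells the counts of called members, 4 with T350A re-expression, 3 with EZH2 re-expression and 4 in si-EZH2 cells, stayed within 1.5 times of these in each alternative that was run. Between T350A and EZH2 re-expression the count was 0, and it was 1 without background correction, with an offset of 50, on the authors' normalized values, with no filter, with detection p under 0.01 on all 12 arrays (which left 3 members tested) and with limma-trend with robust moderation. For T350A re-expression against si-EZH2 cells the count was 1. It was 2 without background correction, with an offset of 50, on the authors' values and with limma-trend, and 0 when only the groups compared were fitted. For EZH2 re-expression against si-EZH2 cells, leaving out 1 array at a time gave 1 to 3 genes, against 3 with all arrays. The cause was not tested.

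Between T350A and EZH2 re-expression the sign turned for 3 members. The position on the chip was tied to the group: the EZH2 re-expression arrays lay in sections I, J and K and the si-EZH2 arrays in E, G and H. The si-Control arrays lay in A, C and F and the T350A arrays in B, D and L. All EZH2 re-expression arrays thus came after all si-EZH2 and si-Control arrays, so in those comparisons the groups also differ in position. With position as a covariate, 282 probes in place of 1688 were called for EZH2 re-expression against si-Control. Between T350A and EZH2 re-expression the CXCL1 difference was then 0.062, the CXCL3 difference -0.38 and the CXCL8 difference 0.66. With 1 array left out this difference ran from -0.15 to 0.13 for CXCL1, from -0.25 to 0.21 for CXCL3 and from -0.13 to 0.18 for CXCL5. Median scaling in place of quantile normalization moved the share of higher among called probes to 39.1% from 54.8% for si-EZH2 against si-Control, to 37.6% from 52.2% for EZH2 re-expression against si-EZH2, to 23.6% from 49.7% for EZH2 re-expression against si-Control and to 27.2% from 49% for T350A re-expression against si-Control. Same-numbered arrays of different groups showed no strong shared deviation (18 correlations from -0.036 to 0.071). This cannot show whether arrays of the same number were handled together. With the replicate block the CXCL8 difference between T350A and EZH2 re-expression was 0.62 ± 0.10, and the 6 counts of called members were unchanged. The authors' values gave CXCL2 the smallest differences of the alternatives run: 0.35 for T350A re-expression, 0.22 for EZH2 re-expression and 0.55 for si-EZH2, each against si-Control cells, and -0.20 for T350A and -0.34 for EZH2 re-expression against si-EZH2 cells. CXCL3 and CXCL5 lay near the detection limit, which limits what can be read from them.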
